A study of Homo sapiens with 17 samples.

Results

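NKYS cells carrying only a control siRNA were measured on 4 of the 17 arrays of the study, and these 4 arrays are set against each other here. They were chosen by their titles: 2 arrays are titled as controls for the JAK3 knockdown, and 2 as controls for EZH2 siRNA-1 and EZH2 siRNA-2. They are called the JAK3-arm controls and the EZH2-arm controls. NKYS is an established human line of natural killer (NK)/T-cell lymphoma, and all arrays come from this 1 line. All 4 groups of siRNA arrays were grown in medium with recombinant IL-2 (100 IU/mL) and electroporated with the Neon system: JAK3-arm controls (control siRNA, 2 arrays), EZH2-arm controls (control siRNA, 2 arrays), JAK3 siRNA (2 arrays) and EZH2 siRNA (2 arrays). The other 9 arrays received plasmids. The labels name the agent of both control groups only as control siRNA, and give no culture, passage, time after electroporation, day or batch, so that the arm and any such factor cannot be told apart. Nor do they tell whether arrays within a group are separate cultures, so that a p-value reflects only how far these arrays vary, which may be technical variation.

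A control siRNA is a short double-stranded RNA made to match no transcript of the cell, and it shows what electroporation and RNA delivery do by themselves. NK lymphoma lines of this kind depend on IL-2, whose receptor signals through the kinases JAK1 and JAK3 to the transcription factor STAT5. EZH2 is the methyltransferase of Polycomb repressive complex 2. Resting or stimulated NK cells differ in the cytokines, chemokines and costimulatory receptors they make and in how fast they divide, which are the gene groups followed below. The question that a comparison of both control pairs answers is how far expression differed where no gene was targeted.

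The deposited table gives linear intensity for 28869 probe sets, which was used after log2, and precision is limited by having 2 arrays in each group. The 8 siRNA arrays were alike in scale, with median signals between 60.28 and 62.46 and lower quartiles between 32.43 and 32.88. Of 18377 genes represented by 1 probe set each, 14466 lay above the filter on low signal and were tested. Of 14 NK cell markers, 10 lay above the median signal of the control arrays (60.9) on all 4 of them, among them the granzyme GZMB, perforin (PRF1), NKG7 and NCAM1, while GNLY (47.1 and 48.3 in JAK3-arm controls, 48.5 and 47.9 in EZH2-arm controls), CD244, CD2 and FCER1G did not. The T cell receptor chains CD3D, CD3E and CD3G lay between 30.2 and 35.7 on all 4 arrays, near the lower quartile. Of 10 T cell markers 3 lay above the median signal, of 8 B cell markers 3, of 9 monocyte markers 2, and of 10 epithelial and fibroblast markers 4.

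The JAK3-arm controls were the more alike pair. Between them the median absolute difference over genes was 0.066 on the log2 scale, and 0 genes were 2-fold apart. Between the EZH2-arm controls the median was 0.099, and 6 genes were 2-fold apart: ARAP2, CFAP126, DIO2, MINAR2, SNORD38B and SPP1. Each of the 4 pairs made of a JAK3-arm and an EZH2-arm control had a median between 0.092 and 0.104, about that of the EZH2-arm pair, and 17 to 21 genes were 2-fold apart. Pairs across arms thus had larger medians than the JAK3-arm pair, and set beside the EZH2-arm pair they differed mainly in the genes furthest apart. At 1.5-fold the counts were 1 gene for the JAK3-arm pair, 83 for the EZH2-arm pair and 128 to 179 for pairs across arms. The difference between the EZH2-arm controls was the larger of both within-arm differences in 62.3% of the genes tested.

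**Figure D1:**
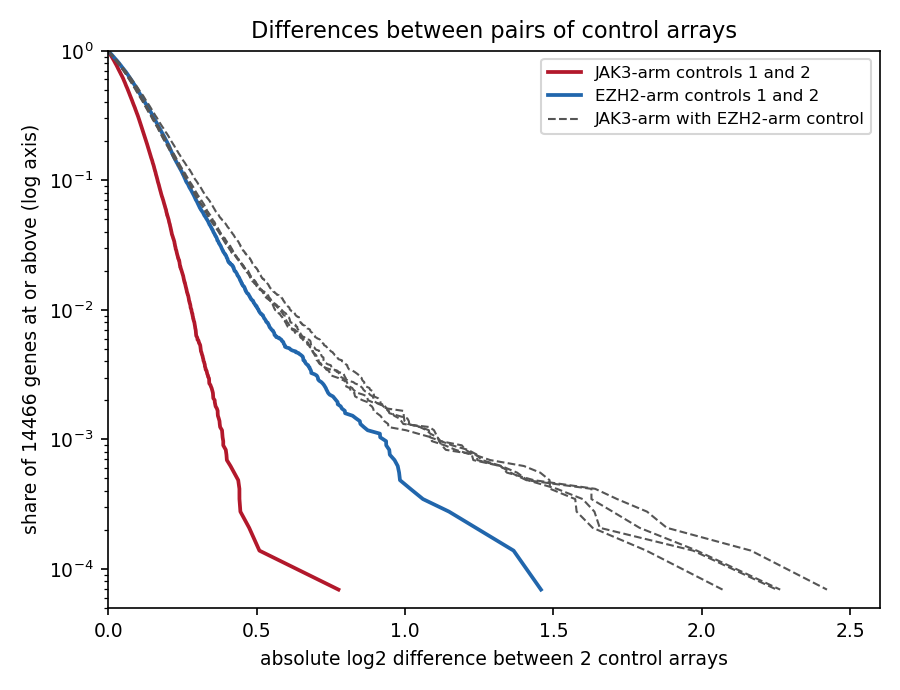
Share of the 14466 tested genes (log axis) whose absolute log2 difference between 2 control arrays is at least the value on the x axis; the solid lines are the pairs within an arm and the dashed lines the 4 pairs across arms. The JAK3-arm pair falls off first, and the pairs across arms run beside the EZH2-arm pair for small differences and beyond it for large ones.

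Setting JAK3-arm controls against EZH2-arm controls, 449 of 14466 genes passed an adjusted p of 0.05 (3.1%; limma, a single fit of the 8 siRNA arrays, Benjamini-Hochberg adjustment, two-sided). Of these, 311 were higher in JAK3-arm controls (2.15%) and 138 lower (0.954%). The median size of a called difference was 0.42 on the log2 scale. At least 2-fold differences were found for 14 genes, all of them higher in JAK3-arm controls. At least 1.5-fold differences were called for 68 genes higher and 13 lower. In each of the 449 calls both JAK3-arm controls lay on 1 side of both EZH2-arm controls, as did 42.6% of all genes tested. The gap between the arms exceeded the larger of both within-arm differences in 399 of the 449 calls and in 14.9% of all genes tested. The EZH2-arm difference was the larger within-arm difference in 314 of the 449 calls (69.9%), beside 62.3% of all genes tested. The fit gives each gene 1 spread shared by all groups, so that its SE does not show this inequality.

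The count of calls rests on having both JAK3-arm controls. It was 55 (42 higher, 13 lower) without JAK3-arm control 1 and 67 (61 higher, 6 lower) without JAK3-arm control 2, against 466 (258 higher, 208 lower) without EZH2-arm control 1 and 625 (456 higher, 169 lower) without EZH2-arm control 2. A lone array left in an arm is assumed in these fits to vary like the other groups. In all of them each of the 449 genes kept the sign of its difference. This had to be so, because in each call both JAK3-arm controls lay on 1 side of both EZH2-arm controls.

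**Figure D2:**
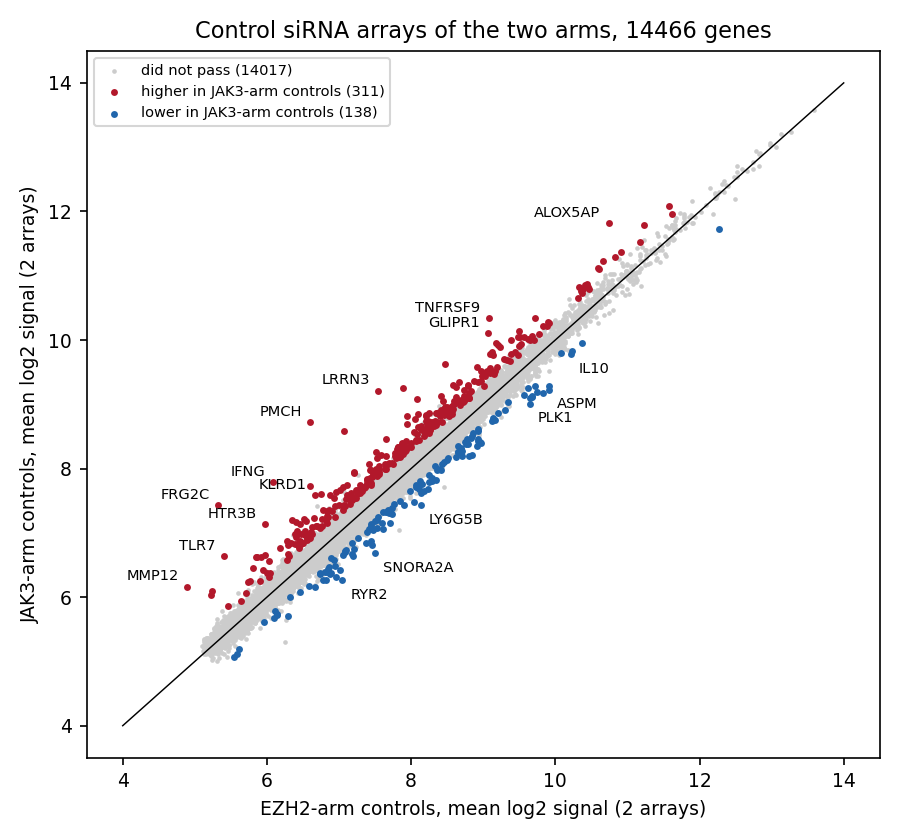
Mean log2 signal of each of the 14466 tested genes on the JAK3-arm controls (y axis, 2 arrays) against that on the EZH2-arm controls (x axis, 2 arrays), with the line of equality. The 311 red genes were called higher and the 138 blue genes lower in JAK3-arm controls; the widest distances from the line lie on the red side.

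FRG2C, HTR3B and MMP12 were picked for this comparison because their gap was already known, so that their signals are a description. FRG2C, from a family of near-identical gene copies, was at 184.5 and 162.6 in JAK3-arm controls, against 41.1 and 38.7 in EZH2-arm controls. The values of the EZH2 arm are near the lower quartile of the arrays, so that the 4.34-fold distance is itself uncertain. A pair of further probe sets, each annotated to 4 members of the FRG2 family, had 267 and 279 in JAK3-arm controls against 69.4 and 63.8 in EZH2-arm controls, and 243 and 254 against 58.8 and 52.8. All 3 probe sets thus showed the gap, and which copies give the signal cannot be read from them.

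HTR3B, a subunit of the ion channel serotonin receptor, was at 141.8 and 140.6 in JAK3-arm controls, against 59.9 and 66.3 in EZH2-arm controls. MMP12, macrophage metalloelastase, was at 70.1 and 73.4 in JAK3-arm controls, against 27.6 and 31.9 in EZH2-arm controls, which again is about the lower quartile. For all 3 genes both pairs were tight and far from each other. The vector arrays, which were electroporated with an empty plasmid in place of siRNA, had 53.9 and 41.2 for HTR3B and 29.2 and 29.5 for MMP12, on the side of the EZH2-arm controls, and 76.7 and 34.5 for FRG2C, which lay far apart from each other.

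Beside these 3, the widest gap was that of PMCH, the precursor of melanin-concentrating hormone, whose signal was 444.9 and 398.8 in JAK3-arm controls, against 83.0 and 113.5 in EZH2-arm controls (log2 difference 2.12, SE 0.210, limma adjusted p = 0.000292). Interferon gamma, IFNG, the main macrophage-activating cytokine of NK cells, was at 222.3 and 218.5 in JAK3-arm controls, against 63.1 and 73.4 in EZH2-arm controls (1.69, SE 0.209, limma adjusted p = 0.00141), a call that was lost with trended robust eBayes (limma adjusted p = 0.0515). The chemokine CCL5, which attracts T cells and monocytes and is stored by NK cells, was at 594.4 and 627.0 in JAK3-arm controls, against 251.0 and 223.3 in EZH2-arm controls (1.37, SE 0.078, limma adjusted p = 3.49e-06). In all 3 genes the arms were separated by far more than either pair's own distance. Of the 18 secreted cytokines and chemokines tested, these 2, IFNG and CCL5, were higher, and IL10, the anti-inflammatory cytokine, was lower (-0.43, limma adjusted p = 0.0219). IL10 was at 904 and 852 in JAK3-arm controls, against 1077 and 1305 in EZH2-arm controls, and its call was lost without either JAK3-arm control and without EZH2-arm control 2 (limma adjusted p = 0.144, 0.199 and 0.067). The list held 2 higher and 1 lower of 18, beside 2.15% and 0.954% of all genes tested, and its median was 0.05, beside 0.01 over all genes. In bulk RNA, fewer cells of a type and less RNA per cell cannot be told apart, here and in every group that follows.

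TNFRSF9, the costimulatory receptor 4-1BB that appears on activated NK and T cells, had 1333 and 1255 in JAK3-arm controls, against 406 and 719 in EZH2-arm controls (log2 difference 1.26, SE 0.180, limma adjusted p = 0.00306). The EZH2-arm controls were themselves far apart for this gene, with array 2 nearer the other arm. Without JAK3-arm control 1 its call was lost (limma adjusted p = 0.0686). CD86 and CD80, the B7 ligands of CD28, were also higher, by 0.63 each (limma adjusted p = 0.000931 and 0.00261). CD86 was at 879 and 870 in JAK3-arm controls, against 569 and 559 in EZH2-arm controls. The call of CD80 was lost without JAK3-arm control 2 (limma adjusted p = 0.0571). Together 3 of the 17 checkpoint and costimulator genes tested were higher and 0 lower, beside 2.15% higher of all genes tested, with a list median of 0.15.

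KLRD1 (CD94), the partner chain of the NKG2 receptors, was the one NK identity receptor of 17 that passed. It was at 192.7 and 192.2 in JAK3-arm controls, against 99.9 and 103.7 in EZH2-arm controls (0.92, SE 0.080, limma adjusted p = 0.000101). That is 5.88% of the list, beside 3.1% called of all genes tested, and the list median was 0.09. Of the 14 cytotoxic granule genes, 0 passed. PRF1 had 3051 and 2994 in JAK3-arm controls, against 2210 and 2587 in EZH2-arm controls, and a limma adjusted p of 0.0928. GZMB was at 3805 and 3871 in JAK3-arm controls, between the 2835 and 5473 of the EZH2-arm controls. IKZF3, the lymphoid transcription factor Aiolos, was the one NK transcription factor of 16 that passed (0.48, limma adjusted p = 0.0156), 6.25% of the list. Its call was lost without either JAK3-arm control. The summed signal of the NK markers was 9561 and 9622 in JAK3-arm controls and 7439 and 10724 in EZH2-arm controls, so that the groups overlapped.

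Of the markers of other cell types, CD4 (0.33, limma adjusted p = 0.0454) and the lysosomal macrophage protein CD68 (0.37, limma adjusted p = 0.0489) were higher and 0 were lower. Both calls were lost without either JAK3-arm control and without EZH2-arm control 2 (limma adjusted p from 0.0948 to 0.372), and that of CD68 also without EZH2-arm control 1 (limma adjusted p = 0.0903). The T cell markers summed to 1274 and 1242 in JAK3-arm controls and to 1192 and 1142 in EZH2-arm controls, and the monocyte markers to 502 and 528 in JAK3-arm controls and to 519 and 549 in EZH2-arm controls. The part of other cell types in any difference was not tested.

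LRRN3, a leucine-rich repeat membrane protein of the nervous system and of naive T cells, was at 632.7 and 557.5 in JAK3-arm controls, against 171.6 and 203.2 in EZH2-arm controls (1.67, limma adjusted p = 3.54e-05). SERPINE2, an inhibitor of thrombin and other serine proteases, had 393 and 372 in JAK3-arm controls, against 145.5 and 124.7 in EZH2-arm controls (1.51, limma adjusted p = 0.000111). TLR7, the endosomal receptor for single-stranded RNA, was at 91.5 and 108.6 in JAK3-arm controls, against 46.4 and 38.7 in EZH2-arm controls (1.23, limma adjusted p = 4.83e-05). ALOX5AP, which presents arachidonic acid to 5-lipoxygenase in leukotriene synthesis, and GLIPR1, a secreted cysteine-rich protein, were higher by 1.08 and 1.04. ALOX5AP had 3719 and 3493 in JAK3-arm controls, against 2045 and 1431 in EZH2-arm controls. GLIPR1 had 1104 and 1108 in JAK3-arm controls, against 520 and 557 in EZH2-arm controls. In these 5 genes and in LOC613266, an uncharacterised transcript (1.14), the groups lay clearly apart, and the call was kept in every alternative that tested the gene and without any single array; TLR7 was not tested with the 50th percentile filter.

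SERPINB4 and HECW2, whose fold was just under 2, were less steady. SERPINB4, a clade B protease inhibitor with a near-identical neighbour, SERPINB3, had 798 and 791 in JAK3-arm controls, against 256 and 493 in EZH2-arm controls (1.16, limma adjusted p = 0.0188). Which of the near-identical genes gives this signal is uncertain, and the call was lost without either JAK3-arm control (limma adjusted p = 0.178 and 0.134). HECW2, an E3 ubiquitin ligase, had 552 and 527 in JAK3-arm controls, against 315 and 231 in EZH2-arm controls (SE of the log2 difference 0.152, limma adjusted p = 0.00502). Without JAK3-arm control 1 or 2 its adjusted p was 0.0857 or 0.0573 (limma). The call of SERPINB4 was also lost with trended robust eBayes, with no filter and in a fit of the 4 control arrays (limma adjusted p = 0.169, 0.0961 and 0.0512). Both genes kept their direction, which had to be so without 1 array, because both JAK3-arm controls lay above both EZH2-arm controls.

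**Figure D3:**
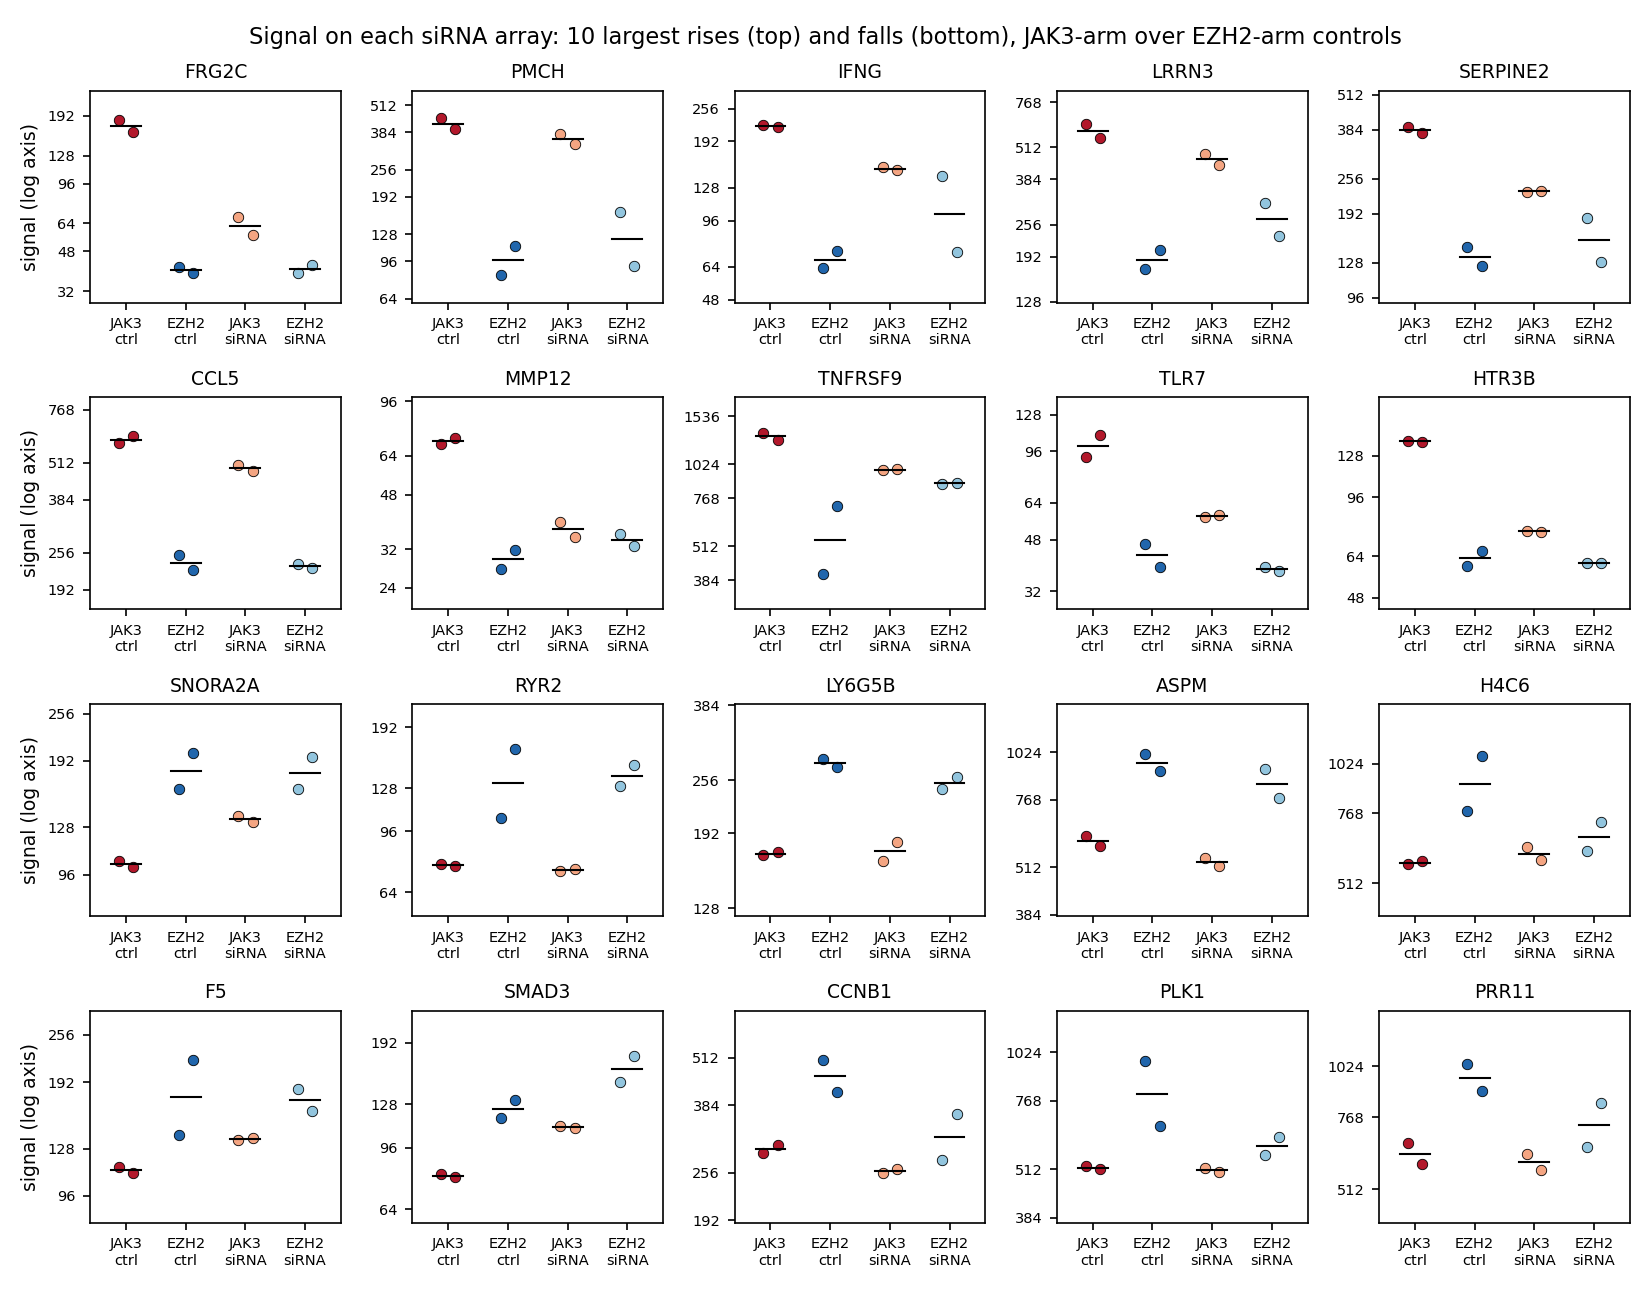
Signal (log axis, a scale of its own per panel) of 20 genes on the 8 siRNA arrays: the 10 largest rises in the upper rows and the 10 largest falls in the lower rows among calls of JAK3-arm over EZH2-arm controls; each dot is 1 array and each bar the group's mean on the log scale. JAK3-arm control dots nearly coincide in most panels, while EZH2-arm control dots spread in TNFRSF9, RYR2, H4C6, F5 and PLK1.

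Many of the genes lower in JAK3-arm controls act in mitosis. Of 35 mitosis genes tested, 17 passed as lower and 0 as higher, beside 0.954% of all genes lower. All 35 had values below 0, between -0.68 and -0.08, with a median of -0.35, beside 6685 of all 14466 genes tested with values below 0. ASPM, which organises spindle poles, was at 617.4 and 581.7 in JAK3-arm controls, against 1014 and 911.8 in EZH2-arm controls (-0.68, SE 0.093, limma adjusted p = 0.00218). CCNB1, the cyclin B1 that drives entry into mitosis with CDK1, was at 288.5 and 303.2 in JAK3-arm controls, against 504.3 and 417.6 in EZH2-arm controls (-0.63, limma adjusted p = 0.0154). PLK1, the polo-like kinase of spindle assembly and mitotic exit, was at 521 and 511 in JAK3-arm controls, against 969 and 659 in EZH2-arm controls (-0.63, limma adjusted p = 0.0257). In these 3 genes both EZH2-arm controls lay above both JAK3-arm controls, but all 449 calls and 42.6% of all genes tested were separated in this way. For PLK1 the EZH2-arm controls differed from each other by 0.56, more than the gap of 0.34 between the arms. For ASPM and CCNB1 the gap was the larger.

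CENPF, a kinetochore protein (-0.56), the kinesin KIF20A of the cytokinetic midzone (-0.57) and UBE2C, the ubiquitin-conjugating enzyme of the anaphase-promoting complex (-0.54), fell likewise. CENPF was at 549 and 543 in JAK3-arm controls, against 859 and 758 in EZH2-arm controls, and it alone of the mitosis genes named so far kept its call in every alternative. CDK1, the kinase partner of CCNB1, had the value nearest 0 in the list (-0.08, limma adjusted p = 0.768), with 324 and 302 in JAK3-arm controls and 319 and 345 in EZH2-arm controls. CDK1 was picked after its value was seen. Relative to the mean of the 8 siRNA arrays, the median mitosis gene was at -0.08 and -0.14 in JAK3-arm controls and at 0.30 and 0.21 in EZH2-arm controls. JAK3 siRNA arrays were at -0.15 and -0.22 and EZH2 siRNA arrays at 0.01 and 0.06, so that both EZH2-arm controls were the highest of the 8 arrays.

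The number of mitosis genes called changed with the arrays and the filter used. It was 8 in a fit of only the 4 control arrays and 10 with no filter on low signal. Without JAK3-arm control 1 or 2 it was 3 or 1, without EZH2-arm control 1 it was 9, and without EZH2-arm control 2 it was 20. All 35 values were below 0 in these fits, except that 34 of 35 did without EZH2-arm control 2. The list median stayed between -0.38 and -0.30 in all 14 alternatives. Several of these change only the filter or the estimate of spread, and leave the 35 differences as they were.

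**Figure D4:**
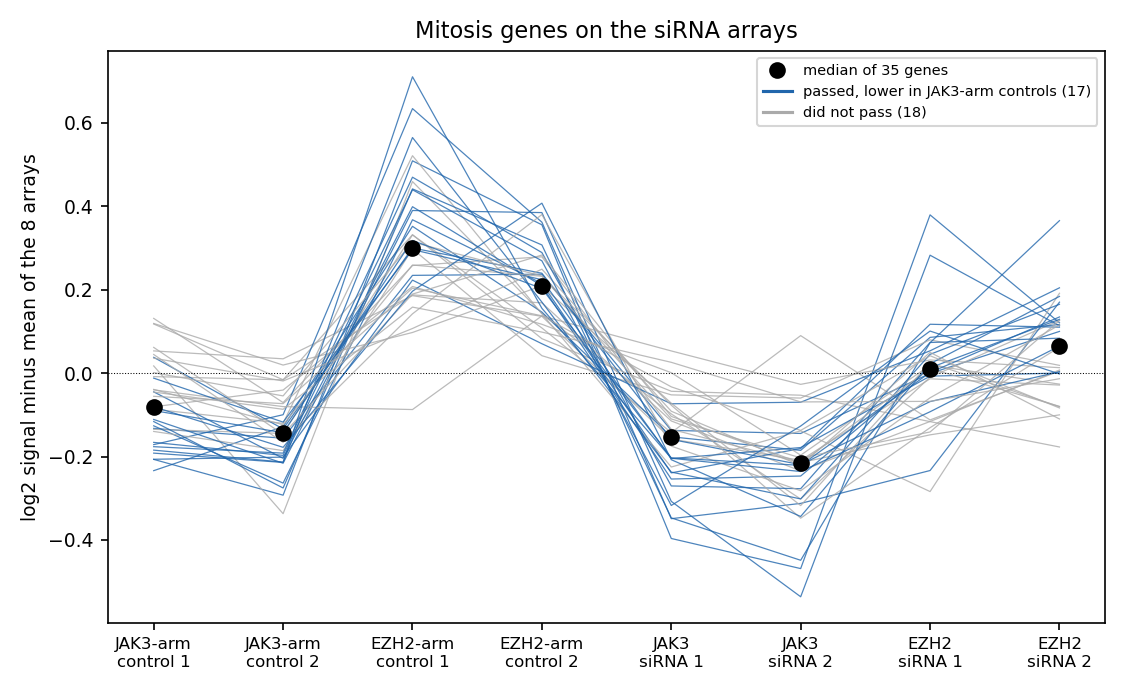
Log2 signal of the 35 mitosis genes on each siRNA array minus the gene's mean over the 8 arrays; a line is a gene, blue for the 17 called lower in JAK3-arm controls and grey for the other 18, and the black dots are medians. The medians of both EZH2-arm controls, 0.30 and 0.21, are the highest of the 8.

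Other groups tied to the cell cycle did not move as a block. Of 42 DNA replication genes 1 passed, POLD1, the catalytic subunit of DNA polymerase delta (-0.34, limma adjusted p = 0.0361), and the list median was -0.01. That is 2.38% of the list, near the 3.1% called of all genes tested. POLD1 lost its call without JAK3-arm control 1 or 2 or without EZH2-arm control 1 (limma adjusted p = 0.226, 0.238 and 0.0949). Of 24 G1-S regulators 0 passed, with a median of -0.05. Of 52 replication-dependent histone genes 5 were lower and 0 higher (9.62%, beside 0.954% lower of all genes tested), with a median of -0.06. They included H4C6 (573 and 583 in JAK3-arm controls, against 777 and 1070 in EZH2-arm controls; -0.66), H3C10 (-0.46) and H2BC10 (-0.36), and these 3 calls were lost without either JAK3-arm control. Histone genes are alike in sequence, and their signals may be shared between copies.

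Because many mitosis genes are switched on late in the cycle through a short promoter element, the cell cycle genes homology region with the core TTTGAA, the promoters of these genes are shown here. In RefSeq promoters of GRCh38.p14, from 250 bases before to 50 after the start, TTTGAA on either strand was found in 20 of the 30 mitosis genes with an entry (66.7%), against 10.2% of the 11294 tested genes with an entry and 15.2% of all 35116. Among the genes called lower, 10 of 14 held it (71.4%). CCAAT on either strand, the other letters searched, was in 22 of 30 (73.3%), against 36.0% of the tested genes with an entry. In the 60 bases before the start, TTTGAA on either strand stood in 10 of 30 mitosis genes (33.3%), against 2.71% of all promoters. Of these 10, 6 were called lower, beside 14 of all 30. Whether match and call go together was not tested. The 60 bases of the 6 called genes follow 5′ to 3′ on the gene's strand, with TTTGAA, or TTCAAA where the match is on the other strand, in capitals. The genes with a match that were not called are not printed. CCNB1 is shown last as a called gene with no TTTGAA on either strand in this window. Variants of these letters were not searched, so that a missing match does not show that the element is absent.
CCNB2: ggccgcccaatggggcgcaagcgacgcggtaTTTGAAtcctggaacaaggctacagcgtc
BUB1B: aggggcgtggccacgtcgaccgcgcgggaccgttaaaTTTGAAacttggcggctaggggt
KIF23: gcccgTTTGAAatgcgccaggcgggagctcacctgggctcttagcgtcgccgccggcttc
PLK1: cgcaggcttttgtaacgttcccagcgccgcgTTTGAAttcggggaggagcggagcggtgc
KIF18A: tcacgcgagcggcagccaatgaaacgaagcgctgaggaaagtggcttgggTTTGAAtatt
KIF11: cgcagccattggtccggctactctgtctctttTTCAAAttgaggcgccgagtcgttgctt
CCNB1: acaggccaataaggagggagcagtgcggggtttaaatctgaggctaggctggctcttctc
These lie at chr15:59105086-59105145 (CCNB2, plus strand), chr15:40161009-40161068 (BUB1B, plus), chr15:69414289-69414348 (KIF23, plus), chr16:23678829-23678888 (PLK1, plus), chr11:28108157-28108216 (KIF18A, minus), chr10:92593070-92593129 (KIF11, plus) and chr5:69167090-69167149 (CCNB1, plus). A match describes the letters only.

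The genes of these promoters differed between the arms by -0.63 to -0.32. CCNB2, cyclin B2, differed by -0.49 (limma adjusted p = 0.00694), with 363 and 330 in JAK3-arm controls against 512 and 460 in EZH2-arm controls. BUB1B, the spindle checkpoint protein BUBR1, differed by -0.43, and KIF23, a kinesin of the central spindle, also by -0.43. KIF18A and KIF11, kinesins that align chromosomes and separate spindle poles, differed by -0.32 each. Called genes without the letters in the window included CCNB1 (-0.63), KIF20A (-0.57) and the kinetochore motor CENPE (-0.55). BUB1B, CCNB2, CENPE, KIF11, KIF18A and KIF23 are named for their promoters, after their values were seen.

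The largest fall among all called genes was that of SNORA2A, an H/ACA small nucleolar RNA that guides pseudouridylation. It was at 104.6 and 100.7 in JAK3-arm controls, against 162.3 and 201.2 in EZH2-arm controls (-0.82, SE 0.109, limma adjusted p = 0.00197). LY6G5B, a small membrane-anchored protein encoded in the MHC region, was at 170.9 and 173.1 in JAK3-arm controls, against 286.2 and 275.5 in EZH2-arm controls (-0.71, SE 0.076, limma adjusted p = 0.000542), and a second probe set gave -0.60. EMC3-AS1, an antisense transcript, differed by -0.59 (limma adjusted p = 0.00173). In these 3 genes the call was kept in every alternative and without any single array. RYR2, the calcium release channel, was at 77.2 and 76.3 in JAK3-arm controls, against 105.1 and 165.8 in EZH2-arm controls (-0.78, limma adjusted p = 0.0187). SMAD3, the signal transducer of TGF-beta receptors, was at 80.7 and 79.2 in JAK3-arm controls, against 117.2 and 131.7 in EZH2-arm controls (-0.64, limma adjusted p = 0.00293). PRR11 (-0.62), GPRIN3 (-0.60), MAP2, a microtubule-associated protein (-0.57), and the clotting factor F5 (-0.64) fell as well. RYR2, SMAD3, PRR11, GPRIN3, MAP2 and F5 lost their calls without either JAK3-arm control, PRR11 also without EZH2-arm control 1 (limma adjusted p = 0.0672) and F5 without EZH2-arm control 2 (limma adjusted p = 0.09).

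The TGF-beta list held calls in both directions. TGFBR1, the type I receptor kinase, was at 465 and 462 in JAK3-arm controls, against 255 and 293 in EZH2-arm controls (0.76, SE 0.084, limma adjusted p = 0.000633). TGFBR3, the co-receptor betaglycan, was higher by 0.42 and SMAD3 was the one lower. In all, 3 of 17 genes were higher and 1 was lower, beside 2.15% and 0.954% of all genes tested, with a median of 0.01. Of the 42 metalloproteases tested, with a median of 0.01, the membrane-bound sheddases ADAM9 and ADAM19 were higher and 0 lower, beside 2.15% higher of all genes tested. MMP12 was left aside because it was picked for its gap and reached the filter on low signal only through the JAK3-arm controls. ADAM9 was at 649 and 617 in JAK3-arm controls, against 359 and 407 in EZH2-arm controls (0.73, limma adjusted p = 0.000633). ADAM19 was at 465 and 447 in JAK3-arm controls, against 314 and 281 in EZH2-arm controls (0.62, limma adjusted p = 0.00134). Of 5 clade B serpins tested, SERPINB4 and SERPINB13 (0.41, limma adjusted p = 0.0321) were higher, beside 2.15% higher of all genes tested. The median of this list was 0.37, but -0.003 with no filter on low signal. TGFBR3 and SERPINB13 lost their calls without either JAK3-arm control, TGFBR3 also without EZH2-arm control 2 and SERPINB13 without EZH2-arm control 1.

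Metallothioneins are small proteins that bind zinc and are induced by metals and stress. Of 16 genes of metallothioneins and zinc handling, 4 were higher in JAK3-arm controls and 0 lower, beside 2.15% higher of all genes tested, with a median of 0.21. MT2A was at 1314 and 1292 in JAK3-arm controls, against 870 and 816 in EZH2-arm controls (0.63, SE 0.078, limma adjusted p = 0.00153), and its other probe sets gave 0.58 and 0.59. MT1H (0.47) and MT1X (0.36) were higher too. The copies are close in sequence and their signals may be shared. MT1H lost its call without JAK3-arm control 1 (limma adjusted p = 0.0938), and MT1X without any single control array (limma adjusted p from 0.0547 to 0.442).

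Of 17 cholesterol synthesis genes, 3 were higher and 0 lower, beside 2.15% higher of all genes tested, with a median of 0.20. INSIG1, which retains the sterol sensor in the endoplasmic reticulum, was at 974 and 919 in JAK3-arm controls, against 546 and 663 in EZH2-arm controls (0.65, limma adjusted p = 0.0168). MSMO1, a sterol oxidase of the pathway (0.52), and the cholesterol carrier STARD4 (0.51) also passed. The EZH2-arm controls differed from each other by a median of 0.20 in this list, with control 1 above control 2 in 13 of 17 genes, as much as the arms did. All 3 calls were lost without either JAK3-arm control.

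Of 25 genes of the IL-2 and STAT5 response, 4 were higher and 0 lower, beside 2.15% higher of all genes tested, with a median of 0.14. Beside TNFRSF9, they were GADD45G, a growth arrest gene (0.61, limma adjusted p = 0.00173), the survival gene BCL2L1 (0.35, limma adjusted p = 0.0354) and DUSP4, a phosphatase of ERK (0.39, limma adjusted p = 0.0471). GADD45G had 186.1 and 188.6 in JAK3-arm controls, against 131.8 and 113.7 in EZH2-arm controls. Of 16 JAK-STAT components, IL21R, a receptor that pairs with the common gamma chain (0.36, limma adjusted p = 0.0201), and JAK2 (0.34, limma adjusted p = 0.0447) were higher and 0 lower, with a median of 0.17. That is 12.5% of the list, beside 2.15% higher of all genes tested. ETV5, a target of ERK signalling, was higher by 0.32. GADD45G kept its call without each array in turn; BCL2L1, DUSP4, IL21R, JAK2 and ETV5 lost theirs without either JAK3-arm control, with limma adjusted p values from 0.111 to 0.467.

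JAK3 itself was at 322.5 and 326.3 in JAK3-arm controls, against 339.9 and 309.7 in EZH2-arm controls, with both values inside the range of the EZH2-arm pair. EZH2 was at 891 and 871 in JAK3-arm controls, against 926 and 691 in EZH2-arm controls (log2 difference 0.14, SE 0.109, limma adjusted p = 0.636). Neither of the genes targeted elsewhere in the study passed between the control pairs, and for EZH2 the JAK3-arm controls lay between both EZH2-arm controls. EZH2 did pass without EZH2-arm control 1 (0.35, limma adjusted p = 0.0369), and without EZH2-arm control 2 its sign turned (-0.07, limma adjusted p = 0.702). Of 14 Polycomb repressive complex 2 genes, 0 passed.

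Smaller numbers of calls came from other lists. Of 26 lysosomal genes 4 were higher and 0 lower (15.4%, beside 2.15% higher of all genes tested), with a median of 0.15, among them the protease cathepsin D, CTSD (0.48, limma adjusted p = 0.00841), HGSNAT (0.52) and CTSB (0.46). Of 29 genes of the ATF4 and endoplasmic reticulum stress response 2 were higher, the serine synthesis enzyme PSAT1 (0.30) and the amino acid transporter SLC1A4 (0.44). In this list 25 of 29 had values above 0, beside 7781 of all 14466 genes tested. Of 18 quiescence and alpha-arrestin genes 2 were higher, TXNIP, which binds thioredoxin (0.73, limma adjusted p = 0.0147), and the antiproliferative gene BTG1 (0.75, limma adjusted p = 0.0243). HLA-DPA1, an MHC class II chain, was at 154.1 and 135.5 in JAK3-arm controls, against 72.9 and 97.7 in EZH2-arm controls (0.78, limma adjusted p = 0.00711), and 1 of 12 MHC genes passed. BNIP3L, a mitophagy receptor (0.49), and P4HA1, a collagen prolyl hydroxylase subunit (0.36), were the 2 of 28 hypoxia and glycolysis genes that passed. The death receptor TNFRSF10B was the one p53 target of 20 (0.43), and BST2, tetherin, the one interferon-stimulated gene of 21 (0.49). The ATF4, quiescence, MHC, hypoxia, p53 and interferon lists had 6.90%, 11.1%, 8.33%, 7.14%, 5% and 4.76% of their genes called, in that order. The share over all genes tested was 3.1%, and nothing about a list is read from 1 or 2 calls. MRPS5, MRPL49 and MRPL32 of 73 mitochondrial ribosomal proteins (0.41, 0.35 and 0.35), NDUFA12 of 76 respiratory chain subunits (0.38) and PSMD11 of 34 proteasome subunits (0.39) were higher. These 3 lists had 4.11%, 1.32% and 2.94% of their genes called, near the 3.1% called of all genes tested, and nothing about the lists is read from them. All of these calls were lost without either JAK3-arm control, except that of BNIP3L, which was lost without JAK3-arm control 1 alone (limma adjusted p = 0.0522).

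Several groups gave no call in either direction (limma, threshold 0.05 over all genes tested): 63 cytosolic ribosomal proteins (median 0.00), 30 ribosome biogenesis factors (0.01), 17 genes of NF-kB subunits and targets (0.09), 19 immediate early genes (0.03), 17 heat shock proteins and chaperones (0.03) and 83 microRNA genes (-0.02). Of 52 spliceosome and SR protein genes, 3 were lower (5.77%, beside 0.954% lower of all genes tested), SNRPA1 (-0.52), PRPF38B (-0.33) and PRPF40B (-0.36), and the median was 0.00. These 3 lost their calls without either JAK3-arm control.

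Small nucleolar RNAs varied within the EZH2 arm. Of 73 box C/D snoRNAs, which guide ribose methylation of ribosomal RNA, 4 were lower in JAK3-arm controls and 0 higher (5.48%, beside 0.954% lower of all genes tested): SNORD1A (-0.59), SNORD13P2 (-0.49), SNORD59B (-0.43) and SNORD43 (-0.35). Yet EZH2-arm control 1 lay below EZH2-arm control 2 in 72 of the 73, by a median of -0.33, more than the median difference between the arms of -0.09. The JAK3-arm controls differed by a median of 0.00 in this list. Without EZH2-arm control 2 the list median between the arms was 0.06, and without EZH2-arm control 1 it was -0.25, so that its direction rests on which of these arrays is used. Of 73 H/ACA snoRNAs 3 were lower and 0 higher (4.11%, beside 0.954% lower of all genes tested): SNORA2A, SNORA6 (-0.46) and SNORA57 (-0.28). EZH2-arm control 1 lay below control 2 in 56 of the 73. All of these calls but that of SNORA2A were lost without either JAK3-arm control.

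The widest differences inside the EZH2 arm were those of MINAR2, at 98.5 on control 1 and 270.6 on control 2 (log2 difference of control 1 minus control 2 -1.46), DIO2, the deiodinase that activates thyroid hormone (279 and 720, -1.37), and CFAP126, a cilium protein (49.8 and 117.5, -1.24). SPP1, the cytokine osteopontin (153 and 340), SNORD38B (175 and 366), ARAP2 (193 and 390), IL26, a cytokine of NK and T cells (101.3 and 200.3), and RASAL2 (126 and 248) followed, and control 2 was the higher in all 8. The JAK3-arm controls lay between both EZH2-arm controls in 5 of the 8: MINAR2 (181.3 and 162.9), DIO2 (392 and 375), SNORD38B (187.6 and 183.4), ARAP2 (219.0 and 205.6) and RASAL2 (211 and 202). None of the 8 was called between the arms (limma adjusted p from 0.0767 for CFAP126 to 0.958 for MINAR2).

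Inside the JAK3 arm the widest difference was that of HSP90AA6P, a pseudogene close in sequence to HSP90 genes, at 163.0 on control 1 and 95.2 on control 2 (0.78). SLC45A4 (70.3 and 49.4), POLE4 (431 and 310), KIAA1586 (183 and 134) and FAM230B (87.6 and 64.5) came next. A second probe set of SLC45A4 gave a difference between the arms of the opposite sign, -0.17 against 0.35. FAM230B alone of these 5 was called between the arms (0.49, limma adjusted p = 0.0486), and that call was lost without JAK3-arm control 1 and without either EZH2-arm control.

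The knockdown arrays give a look at the arms that shares no array with the controls. Here JAK3 siRNA arrays were set against EZH2 siRNA arrays in the same fit, a comparison added after the data were seen. In it the arm and the different target genes cannot be told apart, and both differences use the same estimate of spread. Of 14466 genes 624 passed (4.31%), 478 higher with JAK3 siRNA (3.3%) and 146 lower (1.01%). Of the 311 genes higher in JAK3-arm controls 137 were also higher with JAK3 siRNA, and of the 138 lower 46 were also lower. These 183 genes are 40.8% of the calls between controls and 29.3% of the calls between knockdowns. The sign was the same in 284 of the 311 and in 126 of the 138 (91.3% of each), against 62.8% of all genes tested. Across genes, which are not independent replicates, the differences correlated with r = 0.508 (Spearman's rho 0.415).

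**Figure D5:**
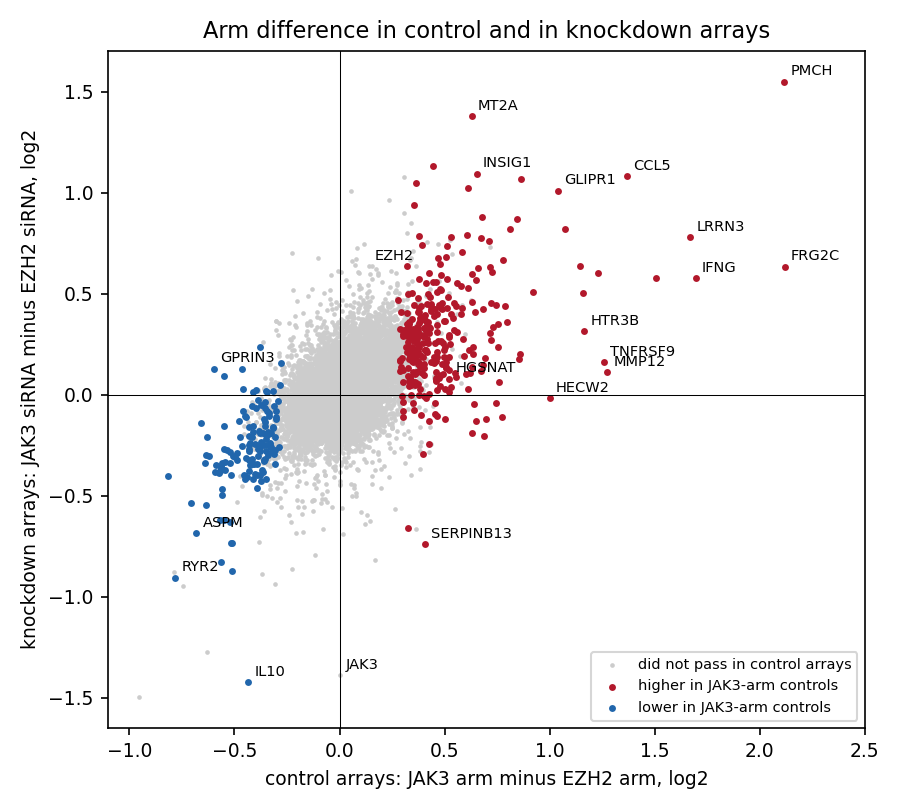
Log2 difference of JAK3 siRNA minus EZH2 siRNA arrays (y axis) against that of JAK3-arm minus EZH2-arm controls (x axis) for 14466 genes; red and blue dots were called higher and lower in JAK3-arm controls. Most red dots lie above 0 on the y axis and most blue dots below, while JAK3 and IL10 lie far below 0 and MMP12, HECW2 and TNFRSF9 near it.

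CCL5 and GLIPR1 were also at least 2-fold apart with the siRNAs. CCL5 was at 502 and 479 with JAK3 siRNA, against 235 and 228 with EZH2 siRNA (1.08, limma adjusted p = 1.64e-05). GLIPR1 was at 1105 and 1129 with JAK3 siRNA, against 572 and 537 with EZH2 siRNA (1.01, limma adjusted p = 1.64e-05). PMCH was at 377 and 337 with JAK3 siRNA, against 163 and 90.6 with EZH2 siRNA (1.55, limma adjusted p = 0.00191). CD86 (0.60), ADAM9 (0.61), ALOX5AP (0.82) and KLRD1 (0.51) passed on the same side, as did ASPM (-0.68), RYR2 (-0.91) and LY6G5B (-0.53) on the other. IFNG was at 153.4 and 149.2 with JAK3 siRNA, against 141.3 and 72.8 with EZH2 siRNA, and did not pass (0.58, limma adjusted p = 0.162).

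For HECW2, TNFRSF9 and TGFBR1 the difference with the siRNAs did not pass. HECW2 was at 197 and 194 with JAK3 siRNA, against 166 and 235 with EZH2 siRNA (-0.02, limma adjusted p = 0.977). TNFRSF9 was at 970 and 982 with JAK3 siRNA, against 868 and 876 with EZH2 siRNA (0.16, limma adjusted p = 0.716). TGFBR1 had 347 and 312 with JAK3 siRNA, against 309 and 320 with EZH2 siRNA (0.06, limma adjusted p = 0.768). The mitosis list had a median of -0.19, with 32 of 35 values below 0 and 6 genes lower, and the metallothionein list a median of 0.23 with 7 of 16 genes higher. Over all genes tested 47.6% had values below 0, 1.01% were called lower and 3.3% higher. MT2A was at 2178 and 2204 with JAK3 siRNA, against 895 and 789 with EZH2 siRNA (1.38, limma adjusted p = 3.35e-06). Of the 311 genes higher in JAK3-arm controls, 2 were called the opposite way, SERPINB13 (-0.74) and PCDH15, a protocadherin (-0.66), both named after their values were seen; of the 138 lower genes, 0 were.

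The JAK3-arm controls are also what JAK3 siRNA was compared with, so that a gap between the controls and the effect of JAK3 siRNA share arrays and are given side by side only. FRG2C was 68.2 and 57.0 with JAK3 siRNA, HTR3B 76.2 and 75.8, and MMP12 39.2 and 35.1. Each lies between the JAK3-arm and the EZH2-arm controls given above. HECW2 differed by -1.47 between JAK3 siRNA and its own controls (limma adjusted p = 0.000519), beside a gap just under 2-fold between JAK3-arm and EZH2-arm controls. TGFBR1 differed by -0.49 (limma adjusted p = 0.0173) and by 0.76, KLRD1 by -0.47 (limma adjusted p = 0.0164) and by 0.92, and TLR7 by -0.79 (limma adjusted p = 0.00244) and by 1.23, in the same order of comparisons. CCL5 differed by -0.32 (limma adjusted p = 0.104) and by 1.37, and GLIPR1 by 0.01 (limma adjusted p = 0.969) and by 1.04. Genes with a wide gap between the controls thus included some that passed with JAK3 siRNA and some that did not.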

How the data were processed

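RNA of NKYS cells was labelled from 100 ng of total RNA, per the labels' protocols, and read on 17 arrays. The authors deposited linear signal intensity per probe set, on a common scale; their background correction, normalization and probe summary are not given in the sources used here. Of 28869 probe sets, 19310 have 1 gene symbol in the platform annotation, 1752 several and 7807 none; 19279 gene identifiers matched RefSeq (GRCh38.p14), which changed 0 symbols. Each gene was read from its brightest single-symbol probe set (by mean signal on all 17 arrays). Genes were tested where the mean of the 8 siRNA arrays reached the 30th percentile of probe sets, a signal of 36.7, and 3911 did not.

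Groups came from the titles. The 8 siRNA arrays were fitted on log2 values with a mean per group (limma 3.58.1, R 4.3.3, data.table package version 1.17.8; lmFit and eBayes, 4 residual and 8.23 prior degrees of freedom), so that all groups share a gene's estimate of spread. The threshold was a Benjamini-Hochberg adjusted p of 0.05 over 14466 genes. The fit was tested on simulated data.

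The arrays, the genes FRG2C, HTR3B and MMP12 and the 44 gene lists were chosen with earlier results of these data known. Lists have counts and medians, with no test. The naming rule took JAK3 and EZH2, these 3 genes, the 15 called genes with the largest rise and the 15 with the largest fall, up to 3 called genes of each list with the smallest p, and the 8 and 5 genes that differed most between the controls of the EZH2 and the JAK3 arm. Alternatives were quantile normalization, median centring, a filter at the 50th percentile or none, averaging a gene's probe sets, trended robust eBayes, array weights, a fit of the 4 control arrays, blocks by array number or EZH2 pair, and leaving out each control array. The knockdown arrays were compared after the data were seen.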

Additional observations from a re-analysis of the deposited data

Results flagged for a closer look

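The difference between the arms was tested against itself in control and in knockdown arrays, as an interaction in the fit of 8 siRNA arrays (control difference minus knockdown difference, log2). It passed for 29 of the 14466 genes tested, 14 of them among the 449 called between controls, and JAK3 and 7 other genes named above were among the 29. The interaction contains the control difference by which the 449 calls, and these named genes except JAK3, were picked. Their number among the 29 and their p-values are therefore no separate support. The knockdowns target different genes, so that the interaction holds any effect of the siRNAs as well as of the arms, and these cannot be told apart.

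JAK3, which was level between the controls and is the target of JAK3 siRNA, had 1.39 (SE 0.103, limma adjusted p = 0.000155). FRG2C had 1.48, HTR3B 0.85 and MMP12 1.16, given as values only because these 3 were picked for their gap between controls. IL10 had 0.99 (SE 0.126, limma adjusted p = 0.00587): it was lower in the JAK3 arm in both comparisons, and further so with the siRNAs. SERPINB13 had 1.15 (SE 0.128, limma adjusted p = 0.00314), being higher in JAK3-arm controls and lower with JAK3 siRNA than with EZH2 siRNA. TGFBR1 had 0.70 (SE 0.119, limma adjusted p = 0.0442). MT2A had -0.75 (SE 0.111, limma adjusted p = 0.0181), its gap being wider with the siRNAs than between the controls.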

How the results depend on the processing

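The 449 calls (311 higher and 138 lower in JAK3-arm controls) numbered 253 (181 and 72) with no filter, which tests 18377 genes, and 214 (159 and 55) in a fit of only the 4 control arrays, which has fewer arrays for the spread. Leaving out 1 control array gave 55 to 625 calls, 42 to 456 higher and 6 to 208 lower. The share called higher was 69.3%, but 62.6% after quantile normalization, 91.0% without JAK3-arm control 2 and 55.4% without EZH2-arm control 1. In the other alternatives the calls numbered 361 to 461, and the 449 genes kept their sign wherever they were tested (434 with the 50th percentile filter). Most of these other alternatives change only the filter or the estimate of spread and leave the difference itself as it was. Of 85 named genes called, 39 kept their call outside the fits without an array and 22 in each of the 14 alternatives that tested them (MMP12 and TLR7 were not tested with the 50th percentile filter). JAK3 changed sign around 0, with 0.0048 after median centring and -0.067 to 0.067 without 1 control array (0.0085 without JAK3-arm control 1), and EZH2 had -0.072 to 0.35, the first without EZH2-arm control 2 and the second, which passed, without EZH2-arm control 1; JAK3 passed in none of these. The small number of arrays limits all of these counts. FRG2C, HTR3B and MMP12 are among the 22 and were picked for their gap. Most other named genes were taken by size or p from the same fit, so that a kept call is no separate support.

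With the array number as a replicate block there were 374 calls (262 higher, 112 lower), and 359 of the 449 were kept. Across genes, same-numbered JAK3-arm and EZH2-arm controls deviated from their group means with a correlation of -0.162. By the same measure the EZH2-arm controls and EZH2 siRNA arrays, which the titles pair, had -0.0857. The measure misses this titled pairing, so it cannot decide whether the numbers pair the control arrays. With the titled EZH2 pair as a random block there were 443 calls (correlation -0.129).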
